A study of Saccharomyces cerevisiae with 6 samples.

Results

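AU-rich RNA-DNA hybrid positions are the places along the transcribed ribosomal DNA (rDNA) of Saccharomyces cerevisiae where the newest RNA of RNA polymerase I (Pol I) is made almost only of A and U. A position was a member when at most 1 of the 9 bases that end at it was G or C. Of 6850 positions with a full window of 9 bases, 311 (4.54%) met this rule, 49 of them with no G or C at all. They were compared with the 4585 positions of 3 to 5 G or C, always within the same region of the rDNA. The rule uses sequence only and no measured value.

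Signal came from native elongating transcript sequencing (NET-seq), which immunoprecipitates Pol I and sequences the 3' ends of its RNA. There were 6 libraries, 2 each from wild-type (WT) cells and from cells in which CDC73 or PAF1 was deleted (cdc73△ and paf1△). CDC73 and PAF1 encode subunits of the Paf1 complex, which travels with elongating RNA polymerases. The labels give no further strain background, no tag on Pol I and no treatment. In the deposited signal every library sums to 1000000 over positions 1 to 6739, so a value is a relative level and total Pol I was not measured.

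In an elongating polymerase the last bases of the RNA stay paired with the template DNA as a short hybrid, and this hybrid helps to hold the complex together. Pairs of A with T or U are weaker than pairs of G with C, and RNA uridines opposite DNA adenines make the weakest hybrid. In bacteria such hybrids are known from pausing, backtracking and terminators, and in budding yeast a T-rich stretch forms part of the Pol I terminator. The 9 bases used here assume that the deposited position is the RNA 3' end.

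The members formed 98 runs of consecutive positions, of which 45 were single positions and 10 held 9 or more. Neighbouring members share 8 of their 9 bases and are not independent. The 5 longest runs are shown, with 3 more that the results below turn on. All are on the minus strand of chromosome XII, build R64, read from the deposited base column as RNA from 5' to 3'. Capitals mark the member positions, and the lower-case bases before them complete the first hybrid.
ITS1 run, positions 2505 to 2524, chrXII:465046-465073: auuaaagaAAUUUAAUAAUUUUGAAAAU
18S run, positions 910 to 927, chrXII:466643-466668: auguauuuAUUAGAUAAAAAAUCAAU
ITS1 to 5.8S run, positions 2852 to 2868, chrXII:464702-464726: gaaauuuuAAAAUAUUAAAAACUUU
Distal 3' ETS run, positions 6783 to 6795, chrXII:460775-460795: uauauaucUAUUAUAAUAUAC
Proximal 3' ETS run, positions 6650 to 6660, chrXII:460910-460928: auuuguuuUUUAUUUCUUU
18S uridine run, positions 1760 to 1765, chrXII:465805-465818: uguuuuuuUAAUGA
25S run, positions 4305 to 4313, chrXII:463257-463273: aaacuuuaAAUAUGUAA
5' ETS adenosine run, positions 643 to 648, chrXII:466922-466935: gaaaaaaaAAAAGA

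Members were spread unevenly over the rDNA. The spacers, which are cut out of the precursor during rRNA processing, held 148 members, or 9.89% of their positions. The 18S, 5.8S and 25S genes held 163, or 3.04%. By region the share was highest in the 3' external transcribed spacer (3' ETS), at 21.8% (46 members), and in internal transcribed spacer 1 (ITS1), at 17.7% (64 members). It was 5.60% in ITS2 (13 members), 5.17% in 18S (93), 4.43% in 5.8S (7), 3.61% in the 5' ETS (25) and 1.86% in 25S (63). U was the base at the position of 156 members and A of 131, against 13 with G and 11 with C. By composition, 83 members were U-rich (at least 6 U of 9), 50 were A-rich (at least 6 A of 9) and 178 were mixed.

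The WT libraries were much shallower than the others. The low values of each WT and cdc73△ library were whole multiples of its smallest value, which gave 480708 and 226202 reads in WT and 18428847.5 and 14965806.5 in cdc73△. The paf1△ values give 29671814 and 14203939.5 if their smallest value is 1 read, which was not settled. Within 0.1 read, 99.85% and 99.99% of them were whole multiples of it, against 99.90% and 99.96% in cdc73△. The paf1△ reads were still not treated as recovered. At the median member this amounts to 17 and 7 reads for WT and 520 and 407 for cdc73△. Members with no signal numbered 16 and 30 in WT, 2 and 0 in cdc73△ and 0 and 2 in paf1△. Depth and genotype therefore cannot be told apart in a comparison with WT. Mature rRNA and nascent RNA were not separated, so signal inside 18S, 5.8S and 25S need not all be Pol I. Nothing in the labels says that the 2 libraries of a genotype came from separate cultures, so their spread may be technical.

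AU-rich positions carried less Pol I signal than positions of middle G and C content in every library. The mean signal of the 311 members was 76.2 and 80.6 in WT replicates 1 and 2, 52.7 and 53.7 in cdc73△ and 67.9 and 61.8 in paf1△. The comparison positions had 143 and 146, 146 and 145, and 148 and 149 in the same order. Members make up 4.53% of all positions and held 2.44% ± 0.0965 of the signal in WT, 1.65% ± 0.0216 in cdc73△ and 2.02% ± 0.135 in paf1△ (SD, n = 2 each). The deletions thus held a smaller share than WT, with no overlap between libraries. Many members lie in low-signal spacers, so the scores below are taken within regions.

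A hybrid score was taken for each library as the mean of log2(signal + 46.5) over members minus that over comparison positions of the same region, with regions weighted by their number of members. The added 46.5 is 0.5 times the median signal, and it shrinks differences in the spacers, where most values lie below it. The score was -0.24 and -0.23 in the WT libraries, -0.34 and -0.31 in cdc73△ and -0.27 and -0.34 in paf1△. All 6 libraries were below 0, both deletions were below WT without overlap, and the deletions overlapped each other. As a ratio of the region-standardised means, with nothing added, the same comparison gave log2 values of -0.45 ± 0.0439 in WT, -0.91 ± 0.0368 in cdc73△ and -0.73 ± 0.0989 in paf1△ (SD, n = 2 each). No p is given for a score over the members. An exact permutation test of 2 libraries against 2 cannot go below 0.333.

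By the hybrid score the members were the low end of a graded relation and not a class apart. In WT the score was -0.32 at no G or C, -0.21 at 1, -0.17 at 2, -0.06 at 3, -0.03 at 4, 0.09 at 5, 0.25 at 6 and 0.32 at 7. In cdc73△ it went from -0.37 at no G or C through -0.32 at 1 and -0.26 at 2 to 0.40 at 7, and in paf1△ from -0.35 through -0.30 and -0.23 to 0.19. The 262 members of 1 G or C, just inside the rule, and the 752 positions of 2, just outside it, thus lay next to each other. The score rose with each added G or C from 0 to 7 in the mean of each genotype. As a log2 ratio of means, with nothing added, WT went down from -0.040 and -0.037 at 3 to -0.080 and -0.046 at 4. On that measure the step from no G or C to 1 was also steeper. In cdc73△ the ratio was -1.69 and -1.55 at no G or C, -0.87 and -0.82 at 1 and -0.56 and -0.57 at 2. The points share their libraries and their neighbouring bases, so this order is a description.

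**Figure D1:**
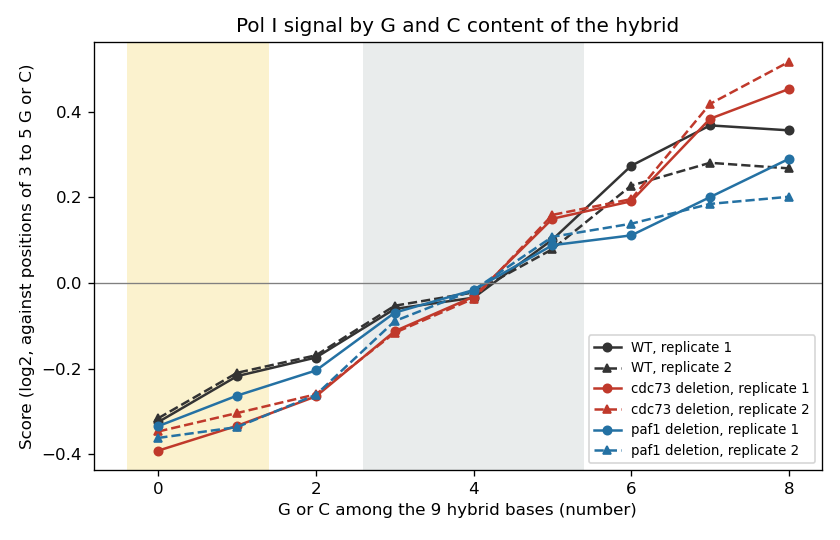
Score of each library (log2, vertical axis) by the number of G or C among the 9 hybrid bases (horizontal axis), where 0 is the level of the comparison positions (grey band) and the yellow band marks the members. Each line is 1 library, and all 6 rise from between -0.39 and -0.32 at no G or C to between 0.20 and 0.52 at 8.

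Members were also lower when positions with the same last RNA base were compared. Matched by region and by this base, the score was -0.27 ± 0.00091 in WT, -0.39 ± 0.0232 in cdc73△ and -0.36 ± 0.0465 in paf1△. Set against comparison positions that also end in A, the 131 members with A scored -0.36 in WT, -0.43 in cdc73△ and -0.51 in paf1△. The 156 members with U, set against positions with U, scored -0.19, -0.34 and -0.23 in the same order. Set against all comparison positions, members with A stood at -0.19 in WT and -0.25 in paf1△ but at -0.43 in cdc73△. Members with U stood at -0.25, -0.33 and -0.21 in the same order of genotypes.

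Sequence after the position, which the rule did not use, also went with the score. The next 9 bases held at most 2 G or C at 33.1% of members and at 14.6% of comparison positions. Against comparison positions with the same downstream class, these 103 members scored -0.12 in WT, -0.12 in cdc73△ and -0.04 in paf1△. They include the start of the proximal 3' ETS run, which has high signal, and their score was not taken without it. The 181 members followed by 3 to 5 G or C scored -0.24, -0.38 and -0.40. The 23 followed by 6 or more scored -0.37, -0.51 and -0.45. As a log2 ratio of means the classes overlapped in cdc73△. The ratio was -0.92 and -0.84 at members followed by at most 2 G or C and -0.90 and -0.87 with 3 to 5. With 6 or more it was -0.99 and -0.87. In paf1△ the ratio was -0.70 and -0.86 with 3 to 5 and -0.61 and -0.83 with 6 or more, so these classes overlapped too.

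Members differed by their uridines, most of all in the rRNA genes. The 83 U-rich members scored 0.06 and 0.14 in WT, -0.02 and 0.03 in cdc73△ and -0.03 and -0.07 in paf1△. In the deletions this pools rRNA gene members below 0 with spacer members above 0. The U-rich spacer members include the whole proximal 3' ETS run described below, and their score was not taken without it. The 50 A-rich members scored -0.39 and -0.43, -0.60 and -0.53, and -0.48 and -0.59 in the same order. The 178 mixed members stood at -0.33 ± 0.00886 in WT, -0.41 ± 0.0100 in cdc73△ and -0.37 ± 0.0483 in paf1△. U-rich and A-rich members of all regions together did not overlap in any genotype. In the spacers of paf1△ they did, with 0.09 and 0.02 for U-rich and 0.15 and 0.04 for A-rich members. With 7 uridines the score was above 0 in all 6 libraries, from 0.07 to 0.27. As a ratio of means it was below 0 in cdc73△ replicate 1, at -0.04, and paf1△ replicate 2, at -0.13. Members with 7 or more uridines include the whole proximal 3' ETS run. Its mean signal was 105 to 163, against 7.23 to 17.0 at the 3' ETS comparison positions. The score by uridines was not taken without this run, so its part in the values above 0 was not tested. With 3 uridines the score was lowest, from -0.64 to -0.53. The same order held 1 step outside the rule, where U-rich windows of 2 G or C scored 0.04 in WT and A-rich ones -0.45, and in paf1△ -0.14 and -0.35.

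**Figure D2:**
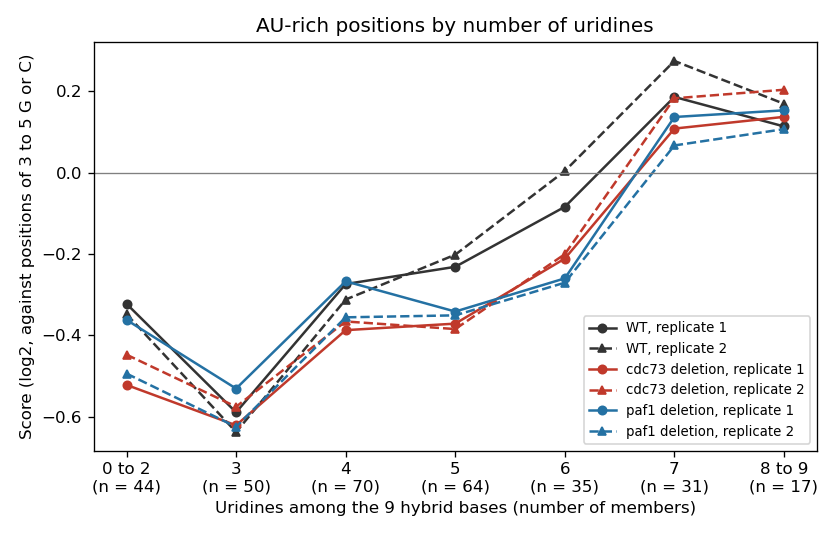
Score of the members in each library (log2, vertical axis) by the number of uridines among the 9 hybrid bases (horizontal axis, with the number of members). Each line is 1 library, and all 6 lie below 0 with 5 or fewer uridines and above 0 with 7 or more. The classes of 7 or more include all 11 positions of the proximal 3' ETS run, and no score was taken without it.

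U-rich members differed between WT and the deletions inside the rRNA genes. These 27 members, in 16 runs, had a median signal of 171 and 168 in the WT libraries, 92.6 and 91.6 in cdc73△ and 113 and 108 in paf1△. Their score was 0.26 and 0.37 in WT, against -0.24 and -0.23 in cdc73△ and -0.27 and -0.26 in paf1△. Without the 18S uridine run of positions 1760 to 1765, an alternative added once the values were known, the scores were 0.23 ± 0.0737, -0.26 ± 0.00303 and -0.22 ± 0.0212. The 34 A-rich members of the rRNA genes were low throughout, at -0.54 ± 0.0451 in WT, -0.83 ± 0.0582 in cdc73△ and -0.83 ± 0.0705 in paf1△ (SD, n = 2 each).

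In 18S the members of both deletions lay below those of WT. The 93 members of 18S had a mean signal of 145 and 148 in WT, 85.3 and 82.0 in cdc73△ and 114 and 108 in paf1△. The comparison positions of 18S had 163 and 168, 158 and 151, and 174 and 176. The 18S score was thus near 0 in WT, at -0.03 and -0.09, and lower, without overlap, in cdc73△ (-0.49 and -0.46) and paf1△ (-0.33 and -0.41). In 25S the members were low in all genotypes, at -0.50 ± 0.0299 in WT, -0.60 ± 0.00965 in cdc73△ and -0.58 ± 0.0784 in paf1△. The mean signal there was 89.5 and 98.8, 83.9 and 84.2, and 97.2 and 87.6.

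All 7 members of 5.8S lie in the run that crosses from ITS1 into the first bases of 5.8S. Their mean signal was 15.5 and 13.9 in WT, 7.03 and 8.88 in cdc73△ and 11.9 and 15.1 in paf1△. The 117 comparison positions of 5.8S stood between 125 and 263. The 5.8S score therefore rests on 1 run at the edge of the gene, and it was the lowest of all regions in every library.

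In the spacers the order of the genotypes depended on the region and on the measure. The score over all spacer members was -0.18 ± 0.0314 in WT, -0.05 ± 0.0282 in cdc73△ and -0.08 ± 0.0351 in paf1△. In the rRNA genes it was -0.28 ± 0.0178, -0.58 ± 0.0179 and -0.52 ± 0.0576 (SD, n = 2 each). On this scale the deletions were below WT in the rRNA genes and above WT in the spacers, where the added 46.5 exceeds most values. In ITS1, as a ratio of means with nothing added, members stood at 0.456 and 0.504 of the comparison level in WT, 0.565 and 0.632 in cdc73△ and 0.560 and 0.543 in paf1△. In the 5' ETS these ratios were 0.429 and 0.528, 0.699 and 0.800, and 0.691 and 0.494, so paf1△ overlapped WT. The ratio of medians in the 5' ETS went the other way for cdc73△, at 0.303 and 0.318 against 1.00 and 0.800 in WT, with 0.843 and 0.635 in paf1△. In ITS2 the ratio of means was 0.269 and 0.289 in WT, 0.231 and 0.217 in cdc73△ and 0.213 and 0.231 in paf1△, so both deletions lay below WT. The spacers thus had no common direction between WT and the deletions.

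The 3' ETS was above the comparison level, but only with 1 run included. Its members scored above 0 in every library, from 0.11 to 0.33. The proximal run of 11 positions, just after the end of mature 25S, had a mean signal of 133 and 140 in WT, 105 and 136 in cdc73△ and 163 and 130 in paf1△. The other 35 members of the 3' ETS had means of 5.89 and 8.85, 1.52 and 1.52, and 3.36 and 2.81. Without that run, an alternative added once the values were known, the 3' ETS score was -0.15 ± 0.0747 in WT, -0.12 ± 0.00231 in cdc73△ and -0.13 ± 0.0107 in paf1△. As a ratio of means, with nothing added, these 35 members stood at 0.346 and 0.623 of the comparison level in WT, 0.201 and 0.211 in cdc73△ and 0.384 and 0.322 in paf1△, with cdc73△ below WT and paf1△ overlapping it. Over all spacers the score was then -0.28 ± 0.0315, -0.17 ± 0.0149 and -0.21 ± 0.0252. How much of the signal just after 25S is unprocessed or mature RNA was not tested.

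**Figure D3:**
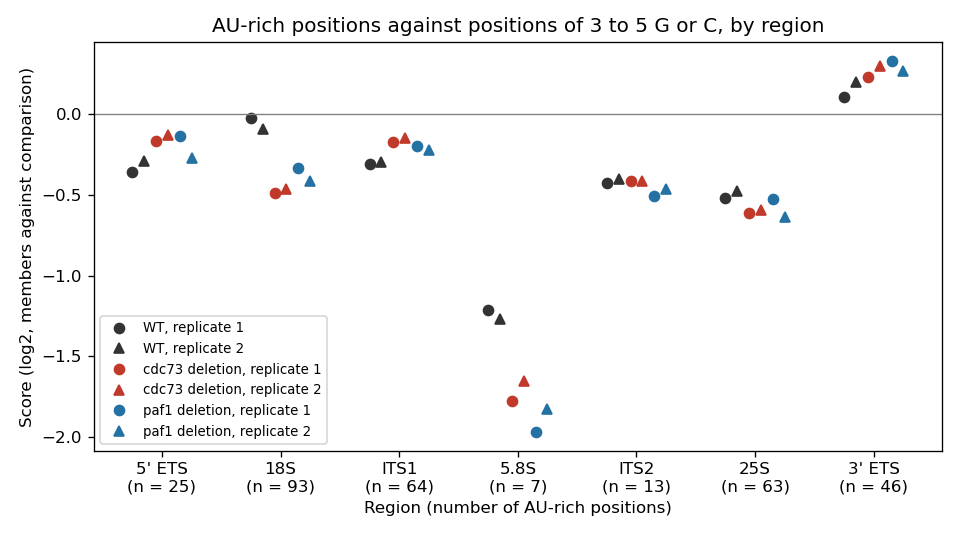
Score of each library (log2, vertical axis) in the 7 regions (horizontal axis, with the number of members), where 0 is the level of the comparison positions of the same region. Circles are replicate 1 and triangles replicate 2. The 18S scores of WT lie near 0 and those of the deletions between -0.49 and -0.33, and only the 3' ETS lies above 0.

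The score was also lower at later places in a run, though each place draws on a different set of runs. The first positions come from all runs, 45 of them single positions, and the later places only from longer runs. Place and length of run were thus not separated, and no score was taken within the same runs. The 98 first positions of runs scored -0.10 ± 0.00679 in WT, -0.20 ± 0.0262 in cdc73△ and -0.21 ± 0.0511 in paf1△. Positions 2 to 4 of a run scored -0.19, -0.33 and -0.31. From position 5 on, where the 100 positions come from few long runs, the score was -0.40 ± 0.0207, -0.46 ± 0.0249 and -0.40 ± 0.0311.

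Around the 53 runs of at least 2 members, signal was set against its local mean, taken over each position and its neighbours up to 50 nt away. At the first member the mean of this ratio was 0.911 and 0.934 in WT, 0.608 and 0.630 in cdc73△ and 0.799 and 0.716 in paf1△. At the next position, which is a member in all of these runs, it was 0.633 and 0.679, 0.516 and 0.537, and 0.531 and 0.464. At 7 nt before the first member, near the start of the first AU-rich window, the deletions had 1.53 and 1.67 (cdc73) and 1.76 and 1.72 (paf1), and WT had 1.01 and 1.05. The medians over runs there were 0.787 and 0.880 in cdc73△, 0.731 and 0.678 in paf1△ and 0.590 and 0.614 in WT, so a minority of runs lay above the local mean in each library. This distance was picked from the profile as the highest point of the deletions. At 10 nt before the first member the order was another, with 1.16 and 1.28 in WT, 1.21 and 1.23 in cdc73△ and 0.909 and 0.940 in paf1△. At the first 2 members of a run all 6 libraries lay below the local mean.

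**Figure D4:**
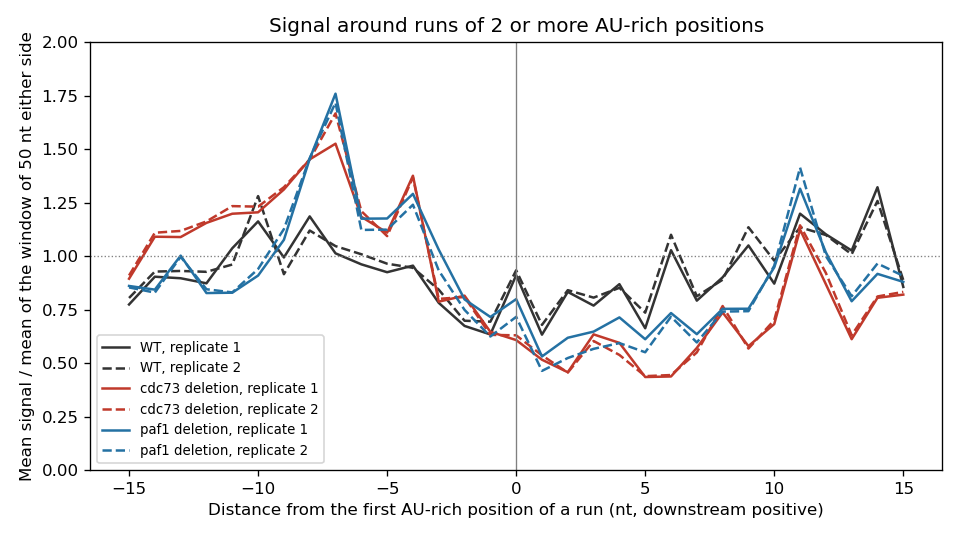
Mean over runs of the signal divided by its local mean (50 nt on either side) (vertical axis) by distance in nt from the first AU-rich position of a run (horizontal axis, vertical line at 0). Each line is 1 library. At -7 nt the 4 deletion libraries lie between 1.53 and 1.76 and the WT libraries at 1.01 and 1.05.

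Few local peaks lay at AU-rich positions. Positions were counted as local peaks, or pause sites, when both libraries of a genotype exceeded the mean by more than 3 SD, both taken over the neighbours up to 50 nt away. In WT 2 of 311 members (0.643%) met this, against 86 of 4585 comparison positions (1.88%). In cdc73△ none did, against 85 (1.85%), and in paf1△ none did, against 76 (1.66%). Both WT pause sites are in 18S. Position 1176 (chromosome XII 466394, hybrid acaauaaaU) had a signal of 1016 and 969 in WT, 287 and 295 in cdc73△ and 270.0 and 244 in paf1△, and was the highest member in WT. Position 917 (hybrid uauuagauA) had 431 and 513, 90.4 and 71.6, and 160.1 and 189. Both met the rule in WT and in neither deletion, so WT being above the deletions there follows from how they were found. The highest member in both deletions was position 6650, the first of the proximal 3' ETS run (hybrid auuuguuuU), at 363 and 430 in cdc73△, 515 and 416 in paf1△ and 716 and 766 in WT.

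Each position was then tested between genotypes with limma on log2(signal + pseudocount), fitted to all positions of a table with Benjamini-Hochberg adjustment over all of them and a threshold of 0.05. The 2 comparisons with WT share the WT libraries. For paf1△ against WT, 50 of 310 members tested were higher (16.1%), where 29.6% of all positions were, and 57 were lower (18.4%), where 19.6% of all positions were. The share called higher was thus below that of all positions and the share called lower was close to it, with no test of either difference. The pooled shares hide a split by region. In the spacers 11.6% of members were higher and 13.6% lower, where 11.5% and 30.3% of all spacer positions were. In the rRNA genes 20.2% of members were higher and 22.7% lower, where 34.6% and 16.6% of all rRNA gene positions were. The median log2 change was -0.02 for members, 0.09 for all positions and 0.14 for the comparison positions. The 2 genotypes did not overlap at 204 members (65.8%), where 75.9% of all positions had no overlap. With library medians set equal, 35 members were higher and 70 lower, against 1502 and 1655 of all positions. Without paf1△ replicate 1 fewer members and fewer of all positions were called, and without either WT library more of both were.

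Of the 83 U-rich members, 19 were lower in paf1△ (22.9%, where 19.6% of all positions were) and 13 higher (15.7%), so their share of falls was close to that of all positions. Over all members the largest fall was at position 670 of the 5' ETS (chromosome XII 466900, hybrid uucuuuuuU), which was singled out after its values were seen. It had a signal of 171 and 186 in WT, 12.4 and 15.4 in cdc73△ and 4.89 and 5.28 in paf1△, a log2 change of -2.09 (SE 0.14, limma adjusted p 6.5e-05) for paf1△ against WT. Its neighbours 669 and 671 and position 673, all U-rich, had 91.6 to 135 in WT and at most 5.81 in any deletion library. These 4 positions had little signal in both deletions and are under the level minimum of the rule for named positions, which is the median of all tested positions. Of the 5 largest falls at or above that minimum, all in rRNA genes, 4 were U-rich, and 2 of these share the 18S uridine run. Position 1762 in that run (chromosome XII 465808) had a signal of 348 and 496 in WT and 52.4 and 85.2 in paf1△, a log2 change of -2.00 (SE 0.20) with a limma adjusted p of 0.000245. Position 1176, described above, fell by 1.77 on the log2 scale (adjusted p 0.000123 by limma). Position 4940 in 25S (chromosome XII 462630, hybrid uuaucuuuU) lies where the reference also annotates the open reading frame YLR154C-G. It fell from 462 and 606 in WT to 136 and 113, and had 217 and 234 in cdc73△. At all 3 positions both paf1△ libraries were well below both WT libraries, which follows from how they were chosen. The rule takes the largest falls among positions whose groups do not overlap.

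The members that rose most in paf1△ lay in 1 stretch of 25S. Positions 4306, 4305, 4312 and 4308 of the 25S run were the 4 largest rises and share most of their bases. Position 4305 had 39.6 and 39.8 in WT, 108 and 124 in cdc73△ and 223 and 199.9 in paf1△ (log2 1.56, SE 0.14, limma adjusted p 0.000167 against WT). Position 4312 had 70.8 and 79.7, 124 and 99.9, and 328 and 287. Over the 9 positions of the run the mean signal was 35.2 and 40.8 in WT, 87.0 and 87.7 in cdc73△ and 164 and 136 in paf1△, with no overlap between any of the genotypes. The run was picked for its rise in paf1△, so paf1△ being above WT there follows in part from that choice. The fifth was position 6660, the last of the proximal 3' ETS run, which rose from 64.6 and 44.3 to 180 and 146.

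For cdc73△ against WT, 44 of 310 members tested were higher (14.2%, where 30.0% of all positions were) and 95 were lower (30.6%, where 29.4% of all positions were). The share of rises was again below that of all positions, and the share of falls was close to it. Spacers and rRNA genes again differed. In the spacers 14.3% of members were higher and 23.1% lower, where 15.6% and 40.8% of all spacer positions were. In the rRNA genes 14.1% of members were higher and 37.4% lower, where 34.1% and 26.2% of all rRNA gene positions were. No overlap was seen at 228 members (73.5%), where 81.2% of all positions had none. In 18S 45 of 93 were lower (48.4%) and 7 higher (7.53%), while 343 of 1171 comparison positions of 18S were lower (29.3%) and 353 higher (30.1%). By base, 54 of 130 members with A were lower (41.5%) and 10 higher, where 36.1% of all positions with A were lower and 26.5% higher. With U, 33 of 156 members were lower (21.2%) and 31 higher (19.9%), where 22.4% of all positions with U were lower and 35.3% higher. Without either WT library more members and more of all positions were called, and without either cdc73△ library fewer of both were.

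Among members at or above the level minimum, the 5 largest falls in cdc73△ were all in 18S, while positions 670 and 673 of the 5' ETS, below it, fell by 1.94 and 1.83 on the log2 scale. Position 917, with the values given above, fell by 2.04 on the log2 scale (SE 0.14, limma adjusted p 0.000207). Position 1762 fell by 2.00, to 70.3 and 71.6. Position 826 (hybrid uauuugauA) had 498 and 460 in WT, 123 and 89.6 in cdc73△ and 178 and 181 in paf1△. Its level in paf1△ lay between those of cdc73△ and WT, as at position 917. Positions 1536 and 913 fell by 1.80 and 1.72.

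The largest rise was position 157 of the 5' ETS (chromosome XII 467413, hybrid uguuuaauU). It had a signal of 31.2 and 35.4 in WT, 241 and 305 in cdc73△ and 28.0 and 23.4 in paf1△, a log2 change of 2.02 (SE 0.14, limma adjusted p 0.00022) against WT. Of the 5 largest rises at or above the level minimum, this position and 6660 lay in spacers. Position 1760, the first of the 18S uridine run, rose from 110 and 88.5 in WT to 259 and 264 in cdc73△, 2 nt before the fall at 1762. It had 206 and 221 in paf1△. The signal in this run was thus highest at positions 1761 and 1762 in WT and at 1760 and 1761 in the deletions. At its last position, 1765, the signal was 148 and 159 in WT, 16.1 and 12.5 in cdc73△ and 26.5 and 30.0 in paf1△.

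**Figure D5:**
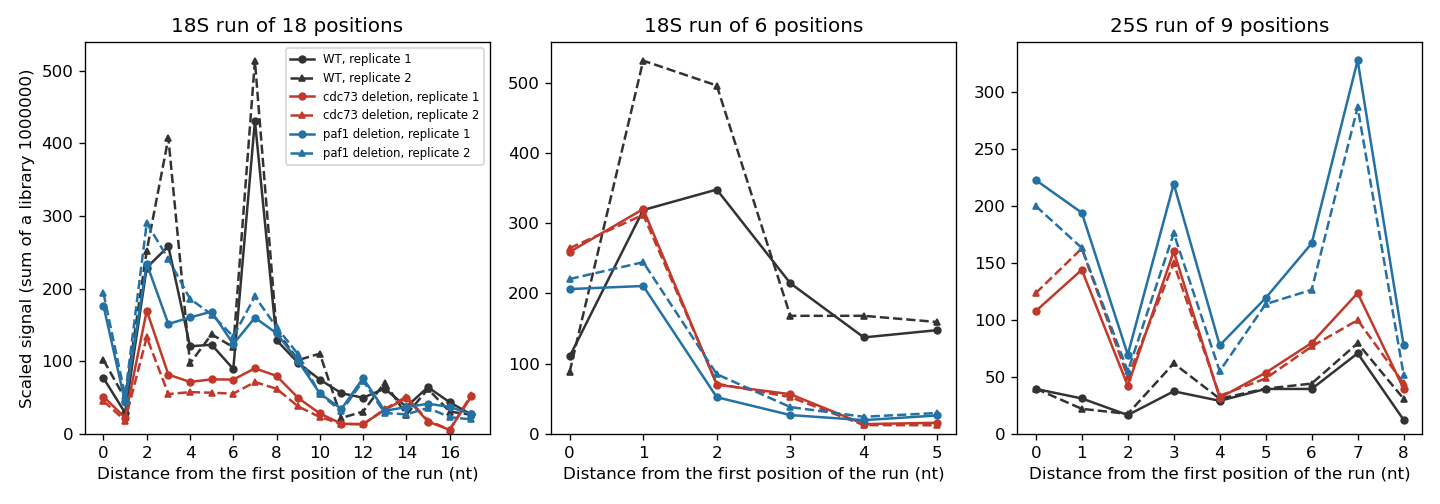
Scaled signal (vertical axis) along 3 runs of members by distance in nt from the first position of each run (horizontal axis), for the 18S run of positions 910 to 927, the 18S uridine run of 1760 to 1765 and the 25S run of 4305 to 4313. Each line is 1 library. In the first run WT peaks at the eighth position (431 and 513). In the second run the deletions fall after the second position while WT stays above them, and in the last paf1△ is above cdc73△ on average and WT is lowest.

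The deletions were then set against each other, without the WT libraries. Of 311 members, 129 had more signal in paf1△ (41.5%, where 34.4% of all positions did) and 43 had less (13.8%, where 20.6% of all positions did). In the spacers 37.8% of members were higher and 12.8% lower, where 44.0% and 24.9% of all spacer positions were. In the rRNA genes 44.8% of members were higher and 14.7% lower, where 31.7% and 19.3% of all rRNA gene positions were. Members with A gave most of the rises, with 82 of 131 higher (62.6%) and 4 lower (3.05%). This base pattern was shared by all positions with A, of which 52.4% were higher and 7.74% lower. Members with U were split evenly, 35 higher and 35 lower of 156 (22.4% each), where 22.7% of all positions with U were higher and 30.4% lower. In 18S 54 of 93 members were higher (58.1%), where 41.2% of the comparison positions of 18S were. No overlap was seen at 254 members (81.7%), where 79.8% of all positions had none. With the pseudocount of 47.4 added, 7 of the 311 members and 293 of the 6846 positions tested were at least 2-fold higher. At least 2-fold lower were 2 and 173. The pseudocount exceeds the median member signal of these libraries, 27.2 to 36.2, so it shrinks fold changes of the signal at members. With library medians set equal the counts were 102 higher and 61 lower, against 1746 and 1976 of all positions.

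The 18S run of positions 910 to 927 differed between the deletions at most of its positions. Of its 18 members, which share bases, 15 were higher in paf1△ and 2 lower. Of all 18S positions tested, 39.9% were higher and 20.2% lower. Its mean signal was 111 and 128 in WT, 54.5 and 44.9 in cdc73△ and 100.1 and 111 in paf1△. WT and paf1△ were thus close, with 111 in both, and cdc73△ was lower. Position 910 had the largest rise of all members, from 51.4 and 45.5 in cdc73△ to 177 and 194 in paf1△ (log2 1.28, SE 0.11, limma adjusted p 3.12e-05), with 77.1 and 102 in WT. Positions 824, 780 and 1308, also in 18S, rose by 1.13, 1.12 and 1.14. In the other direction position 157 was lower by far in paf1△ (log2 -2.13, SE 0.13, limma adjusted p 6.27e-06). Position 316 of the 5' ETS (-1.38) and position 806 of 18S (-0.99) followed, both under the level minimum and named after their values were seen. Position 4940, the next above the minimum, changed by -0.67.

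The longest run, in ITS1, stayed low in every genotype. Its 20 positions had a mean signal of 13.1 and 16.2 in WT, 11.2 and 11.5 in cdc73△ and 18.9 and 16.5 in paf1△. Against WT 4 were higher and none lower in paf1△, where 9.44% and 23.1% of all ITS1 positions were. In cdc73△ 3 were higher and 2 lower, where 14.7% and 33.3% of all ITS1 positions were. The run into 5.8S had a mean of 9.68 and 9.63 in WT, 5.75 and 6.71 in cdc73△ and 11.6 and 11.2 in paf1△. The distal 3' ETS run, past the positions whose sum was scaled, had 5.61 and 7.49 in WT, 0.351 and 0.468 in cdc73△ and 0.978 and 0.769 in paf1△. Most of the WT signal there lay at 1 position, with 56.2 and 57.5, and limma called 2 of 12 positions lower in each deletion. Of all 3' ETS positions tested, 19.3% were lower in paf1△ and 28.4% in cdc73△. The 5' ETS adenosine run, which has no uridine, had 48.2 and 48.7 in WT, 37.6 and 45.2 in cdc73△ and 82.5 and 58.4 in paf1△, with paf1△ above the others.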

How the data were processed

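Per the submitters' processing notes, reads were handled with tools that include cutadapt 3.4, STAR 2.7.1a and bedtools 2.28.0, and the build was R64. Per the labels' protocols, the RNA 3' ends received a linker with a molecular identifier. Whether identifiers were collapsed, and where reads of the repeated rDNA were placed, is not given in the sources used here. In each table the deposited signal holds 1 value per position and library, which the authors scaled so that positions 1 to 6739 sum to 1000000. The 3 tables hold the same values for libraries they share; the authors' group means, intervals, ratios and p-values in them were not used.

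Hybrid scores were computed with Python 3.11.15, numpy 2.4.6 and pandas 2.3.3. Positions above 0 in at least 2 of 4 libraries were tested with limma 3.58.1 (lmFit, eBayes with trend) on log2(signal + pseudocount), the pseudocount being 0.5 times the median of the values above 0 (48.1 for paf1△ and WT, 44.3 for cdc73△ and WT, 47.4 for both deletions). The threshold was an adjusted p of 0.05 (Benjamini-Hochberg). edgeR 4.0.16 was run on reads recovered from the deposited signal of WT and cdc73△, where at least 99.9% of values were whole within 0.1 read. The fit was tested on simulated data. Named positions are the 5 largest changes in each direction among members past the threshold, with groups that do not overlap and a mean level at or above the median of all tested positions; positions under that minimum are named only where the text says so. The members, lists and named runs were chosen with earlier results of these data known. The alternatives were other windows, pseudocounts, filters, scalings and references, and each library left out.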

Additional observations from a re-analysis of the deposited data

Results flagged for a closer look

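Groups of U-rich or A-rich members in which every library of one genotype lay above 0 and every library of another below 0 are given here; none of these differences was tested, and an exact permutation test of 2 libraries against 2 cannot go below 0.333. Over all 83 U-rich members the score of paf1△ minus WT was -0.15. These 83, also used in the base-matched score below, include the proximal 3' ETS run. Neither score was taken without that run. In the rRNA genes the 27 U-rich members gave -0.58 for paf1△ minus WT and -0.55 for cdc73△ minus WT, with the libraries' values given above. Matched by the base at the position, the U-rich members scored 0.08 and 0.14 in WT and -0.12 and -0.07 in cdc73△, a difference of -0.21. The 16 A-rich spacer members, in 5 runs, scored -0.15 and -0.15 in WT and 0.15 and 0.04 in paf1△, a difference of 0.25, and their mean signal was 38.8 and 39.0 in WT and 45.6 and 35.6 in paf1△.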

How the results depend on the processing

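The score stayed below 0 in each genotype under every alternative run, but its size moved. In the order WT, cdc73△, paf1△, it was -0.39, -0.51 and -0.48 with a pseudocount of 0.1 times the median, -0.16, -0.25 and -0.23 with 1 times the median, -0.45, -0.91 and -0.73 as a ratio of means, -0.29, -0.41 and -0.37 with the window 1 base upstream, -0.19, -0.28 and -0.25 with at most 2 G or C, -0.27, -0.39 and -0.36 matched by base, -0.27, -0.38 and -0.37 without mature rRNA 3' ends, -0.18, -0.0495 and -0.0756 in spacers, -0.28, -0.58 and -0.52 in rRNA genes and -0.38, -0.83 and -0.84 against the local level. In WT and cdc73△ it was -0.21 and -0.29 with 8 bases, -0.27 and -0.35 with 10, -0.32 and -0.37 with no G or C and, chosen after seeing the data, -0.25 and -0.35 within positions 1 to 6739 and -0.17 and -0.29 with runs counted once. Leaving out 1 library gave -0.23 in WT, -0.34 to -0.31 in cdc73△ and -0.34 to -0.27 in paf1△. The difference from WT, -0.08 for paf1△ and -0.10 for cdc73△, became -0.28 and -0.46 as a ratio of means, -0.0278 and -0.0489 with no G or C, -0.24 and -0.30 in rRNA genes and -0.46 and -0.46 against the local level. It changed sign in spacers, to 0.10 and 0.13. With 1 library left out it was -0.11 to -0.0439 for paf1△, smallest without paf1△ replicate 2, and -0.11 to -0.0802 for cdc73△. For paf1△ it was -0.16 with runs counted once. paf1△ minus cdc73△, 0.02, was 0.17 as a ratio of means, -0.0261 in spacers, -0.0051 against the local level, -0.0416 with runs counted once and -0.0139 to 0.0524 with 1 library left out, where it changed sign without paf1△ replicate 1. The cause of these shifts was not tested.

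Without 1 library the members called higher and lower ranged from 27 to 87 and 38 to 104 for paf1△ against WT, from 20 to 79 and 62 to 155 for cdc73△ against WT, and from 103 to 158 and 34 to 55 between the deletions. Leaving out a WT library, which leaves 1 assumed to vary like the other group, raised the counts. edgeR on recovered reads called 50 members higher and 102 lower for cdc73△ against WT, and 2272 and 2050 of all positions. The replicate numbers were shared in the labels only, and replicate differences correlated at -0.23 to 0.11 between genotypes. With a replicate block the members called were 52 and 61 for paf1△ against WT, 46 and 105 for cdc73△ against WT, and 128 and 38 between the deletions. Of all positions, 2095 and 1387, 2141 and 2136, and 2271 and 1280 were called in the same order. WT depth limits what single positions can show, with medians of 17 and 7 reads a member.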
